A study of Mus musculus with 12 samples.

Results

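The 10 transcripts described here encode secreted signals of brain inflammation. They are the CC chemokines Ccl2, Ccl3 and Ccl4, the CXC chemokines Cxcl10, Cxcl12 and Cxcl16, the CX3C chemokine Cx3cl1, and the cytokines Il18, Il33 and Tnf. They were chosen by name, and each was read from the row annotated to that symbol alone. Every one of the 10 had exactly 1 such row, among 30184 genes with 1 symbol. Values are log2 signals on Clariom D arrays of mouse cortex RNA, so a difference of 1 is a doubling. A signal minimum of 6.76, taken from the methods, had to be passed on at least 1 array before a gene was tested. Of the 10 transcripts, 5 passed it (Ccl3, Cxcl12, Cx3cl1, Il18 and Il33), and Ccl3 did so on 1 array only. The other 5 (Ccl2, Ccl4, Cxcl10, Cxcl16 and Tnf) lay under it on all 11 arrays, and for them values are given without a call.

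Chemokines are small secreted proteins that attract cells along a gradient through G protein-coupled receptors. In the brain, microglia, astrocytes, neurons and vessels each make some of them. Most are transcribed on demand when NF-kB, interferon or AP-1 signalling is switched on, whereas Cxcl12 and Cx3cl1 are made in the healthy brain, where Cx3cl1 on neurons signals to Cx3cr1 on microglia. Il33 and Il18 belong to the interleukin-1 family: Il33 is held in the nuclei of oligodendrocytes and astrocytes and is released on damage, and Il18 is cut to its active form by caspase-1. Tnf is the founding ligand of the tumour necrosis factor family.

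The study asked how transcripts of a tau transgenic cortex depend on continued tau expression. Tg mice (rTg4510) carry Tg(Camk2a-tTA)1Mmay and Tg(tetO-MAPT\*P301L)4510Kha/J, so that human 0N4R tau with the P301L change is made under the Camk2a promoter, which is active in excitatory neurons of the forebrain, and is turned down by doxycycline. Tg + Dox (3 arrays, 1 male and 2 female) received feed with 200 ppm doxycycline for 35 days from an age of 3.5 months, and the labels put their human tau at 5 to 8 times mouse tau. Tg + Veh (3 arrays, 2 male and 1 female) received normal feed and had human tau at about 13 times mouse tau per the labels. Non + Dox (2 arrays, both male) and Non + Veh (3 arrays, 1 male and 2 female) were FVB/NJ mice without the tau transgene on doxycycline feed and on normal feed. Non + Dox also received 200 ppm for 35 days, and the age at the start of feeding was 3.5 months in every group. Doxycycline lowers the transgene in Tg mice and reaches Non mice as a drug alone, so the feed difference in Tg holds both.

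Some arrays stand apart or go against their labels. The methods removed 1 more Tg + Veh sample after quality control, and the female replicate 4 is therefore in no fit unless named. Its mean correlation with the other arrays was 0.989, against 0.992 to 0.993 for the rest. Fgf14, the gene that holds the inserted tau transgene, separated the 7 Tg arrays from the 5 Non arrays. Esyt2, Ptprn2 and Wdr60, at the site of the tTA transgene, did not: Non + Veh replicate 3 and Non + Dox replicate 2 looked like Tg arrays in all 3. Esyt2, for example, had 9.60 and 9.61 there and 10.86 to 11.23 in the remaining Non samples. Without those 2 arrays no member was called in any comparison either. Neuron markers were all present (8 of 8 above the minimum), as were 8 of 9 astrocyte, 7 of 7 oligodendrocyte and 7 of 9 microglia markers with a row, whereas 10 of 11 blood leukocyte markers with a row lay under the minimum. Fewer cells of a type and less RNA per cell cannot be told apart in tissue RNA.

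Promoter sequence is shown for the letters that inflammatory transcription factors are known to read. RefSeq (GRCm38.p6) gave 8 promoters for 7 of the 10 genes, each from 250 bases before the start site to 50 bases after it. In each, 4 motifs were searched on both strands: the NF-kB consensus, the interferon-stimulated response element (GAAA, any 2 bases, then GAAA), the AP-1 element TGANTCA and the TATA box TATAAA. Of 32851 mouse promoters of this length, 4.51% hold the NF-kB consensus, 3.44% the interferon element, 7.81% the AP-1 element and 13.6% the TATA box. Capitals mark the matches. Cxcl10 is shown because it held the most matches, and Ccl3 and Cxcl12 because they lay farthest above and below 0 in Tg + Veh over Non + Veh. The windows are chr5:92348840-92349139 (minus strand) for Cxcl10, chr11:83649329-83649628 (minus strand) for Ccl3 and chr6:117168285-117168584 (plus strand) for Cxcl12.
Cxcl10: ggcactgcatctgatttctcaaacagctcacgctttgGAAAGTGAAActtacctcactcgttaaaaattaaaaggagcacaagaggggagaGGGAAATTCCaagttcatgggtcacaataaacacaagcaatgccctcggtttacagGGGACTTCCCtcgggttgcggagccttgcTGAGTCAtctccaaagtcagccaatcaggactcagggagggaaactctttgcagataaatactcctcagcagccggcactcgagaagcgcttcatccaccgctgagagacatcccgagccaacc
Ccl3: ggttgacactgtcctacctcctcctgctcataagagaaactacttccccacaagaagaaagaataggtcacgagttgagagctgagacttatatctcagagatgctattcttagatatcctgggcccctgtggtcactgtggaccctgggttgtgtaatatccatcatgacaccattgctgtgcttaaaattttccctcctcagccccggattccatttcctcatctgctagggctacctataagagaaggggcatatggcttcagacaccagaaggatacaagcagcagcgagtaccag
Cxcl12: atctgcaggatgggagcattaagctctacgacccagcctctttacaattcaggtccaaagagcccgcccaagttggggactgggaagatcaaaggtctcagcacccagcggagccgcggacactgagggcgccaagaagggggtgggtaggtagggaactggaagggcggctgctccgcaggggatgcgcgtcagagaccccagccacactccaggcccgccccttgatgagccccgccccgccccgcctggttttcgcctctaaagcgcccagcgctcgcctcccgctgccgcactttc
The Cxcl10 window held 1 interferon element at 213 to 204 bases before the start site. It also held 2 NF-kB matches at 159 to 150 and at 103 to 94 bases before that site. At 74 to 68 bases before it lay 1 AP-1 element, matched on both strands because the pattern TGANTCA is its own reverse complement. The Ccl3 and Cxcl12 windows held none of the 4 in these letters. Cxcl10, with those 3 kinds of match, was among the 5 transcripts under the signal minimum.

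No member was called in any of the 5 comparisons, at an adjusted p under 0.05 from limma with Benjamini-Hochberg adjustment over 12566 genes. In Tg + Veh over Non + Veh, 2.00% of those genes were called in either direction, and in Tg + Dox over Tg + Veh 0.692% were. In Tg + Dox over Non + Dox, in Non + Dox over Non + Veh and in the difference between the feed effects of Tg and Non, 0% were called. At an unadjusted limma p under 0.05 the counts among the 5 tested members were 3 in Tg + Veh over Non + Veh, 2 in Tg + Dox over Tg + Veh, 0 in Tg + Dox over Non + Dox, 0 in Non + Dox over Non + Veh and 3 in the difference of feed effects. In the same order, 1714, 2016, 756, 1328 and 1034 of the 12566 genes did so, and the member counts are descriptions. The two-way test of the methods, at its unadjusted threshold of 0.01, passed 0 of the 10, of which 5 lay under the signal minimum. The share of all genes that passed it is not given here, so this 0 is a description. With 2 or 3 arrays a group, a missed threshold does not show that levels were equal, so each difference is given with its 95% interval. The p-values measure the spread between the samples of a group, which the series calls biological replicates.

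Ccl3, a chemokine of activated microglia that acts through Ccr1, differed most. Its transcript cluster, TC1100003401.mm.1 (RefSeq span chr11:83647843-83649378), had log2 signals of 5.29, 5.13 and 6.32 in Tg + Dox, against 7.31, 6.55 and 6.23 in Tg + Veh. It had 5.04 and 5.34 in Non + Dox, against 5.17, 5.16 and 5.18 in Non + Veh. All 3 Tg + Veh arrays were thus above all 5 Non arrays, and Tg + Dox was split, with replicate 3 inside the Tg + Veh range and the other 2 arrays at Non levels. Ccl3 was tested only because Tg + Veh replicate 1 passed the minimum, so the filter itself let it in through the group where it is high.

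The Ccl3 difference in Tg + Veh over Non + Veh was 1.53 (SE 0.333, 95% interval 0.77 to 2.28), a 2.88-fold difference, at an adjusted p of 0.0572. It was -1.11 in Tg + Dox over Tg + Veh (interval -1.87 to -0.36, adjusted p = 0.164), and 0.39 in Tg + Dox over Non + Dox (interval -0.45 to 1.23, adjusted p = 0.944). Leaving out Tg + Dox replicate 3 moved both of the first across the threshold. Without it Ccl3 was called, at 1.53 (adjusted p = 0.0235) and -1.48 (adjusted p = 0.0481) from limma. Of 19 alternative settings, 3 called Ccl3 in Tg + Veh over Non + Veh and 1 called it in Tg + Dox over Tg + Veh. Without a minimum the limma adjusted p was 0.1172 and 0.2859 in these comparisons. With all 12 arrays it was 0.1699 and 0.2258. Without Tg + Veh replicate 1 no array passed the minimum and Ccl3 was not tested. The difference between the feed effects in Tg and Non was -1.14 (interval -2.27 to -0.01, adjusted p = 0.604).

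Several microglial markers, like Ccl3, were higher in Tg + Veh than in Non + Veh. Of the 10 listed, 9 had a row and 7 were tested, and 3 were called higher in Tg + Veh over Non + Veh: Csf1r, the receptor for Csf1 (1.40, adjusted p = 0.0254), Tyrobp, a signalling adaptor (1.93, adjusted p = 0.0326), and Trem2, a lipid-sensing receptor paired with it (1.22, adjusted p = 0.0074). Trem2 passed the signal minimum on 2 Tg + Veh arrays and on no array of another group, so it was tested only through the group where it is high. Its call held with any 1 array left out and without a minimum (adjusted p = 0.0162), and was lost with all 12 arrays (adjusted p = 0.0911). Csf1r and Tyrobp lost theirs without 1 of several arrays, among them Non + Veh replicate 1 (adjusted p = 0.110 and 0.114), and without a minimum (adjusted p = 0.0538 and 0.0707). Cx3cr1, Aif1, Itgam and Cd68 were tested and not called in Tg + Veh over Non + Veh. Between Tg + Dox and Tg + Veh 0 of the 7 were called. The mean log2 signal of the 9 was 7.08, 7.22 and 7.54 in Tg + Dox and 8.39, 7.75 and 7.72 in Tg + Veh, and it was 6.81 and 7.06 in Non + Dox and 6.89, 6.94 and 7.08 in Non + Veh. Tg + Dox replicate 3 was the highest of its group in this mean as in Ccl3, and Tg + Veh replicate 1 was the highest of all. P2ry12 and Tmem119, defining markers of resting microglia, lay under the minimum on every array. The mean of Tmem119 was 6.45 in Tg + Veh and 6.43 in Non + Veh, and that of P2ry12 was 6.20 and 5.89. The part of these markers in the Ccl3 result was not tested.

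The 3 tested genes with patterns most like Ccl3, by Pearson r over the 11 arrays, were Lilrb4a, Itgb2 and Clec7a, each at 0.987. The arrays share their groups, so the r is a description. Clec7a, a receptor for fungal glucans found on activated microglia, was at 4.92 to 6.20 in Tg + Dox and at 6.31 to 7.63 in Tg + Veh. It was at 4.61 to 4.69 in Non + Dox and at 4.49 to 4.73 in Non + Veh. The differences in Tg + Veh over Non + Veh were 2.36 for Clec7a, 2.04 for Lilrb4a, an inhibitory receptor of myeloid cells, and 1.07 for Itgb2, the integrin chain of leukocytes and microglia. The genes were picked for following Ccl3, which is high in Tg + Veh, so these differences are given with no test. Clec7a and Itgb2 passed the signal minimum on Tg + Veh arrays only, 2 each.

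**Figure D1:**
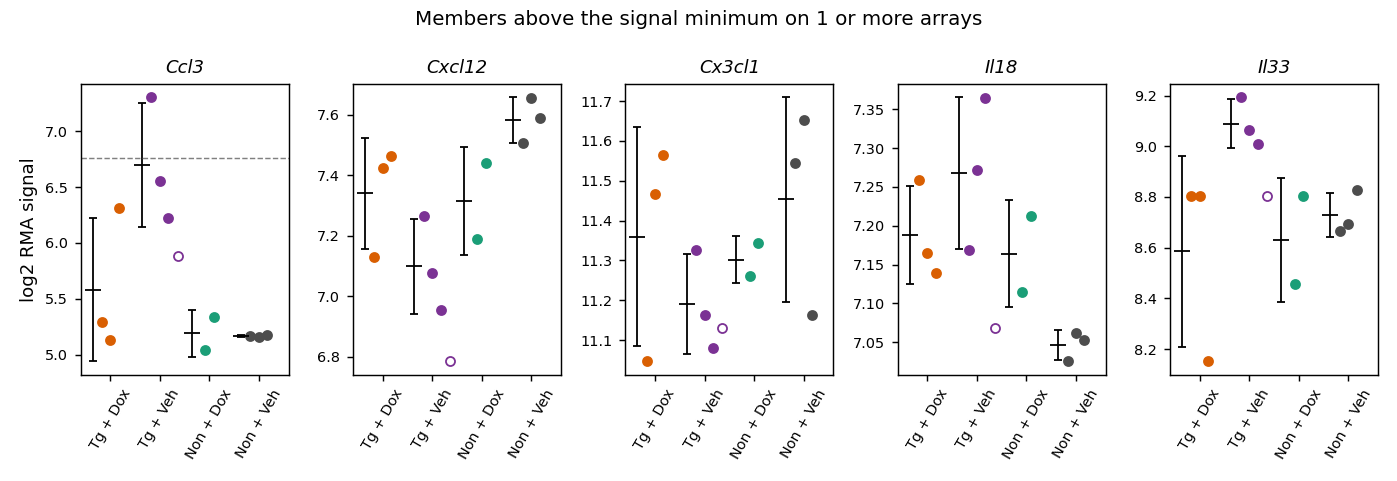
Log2 RMA signal (vertical axis, its own scale in each panel) of the 5 tested transcripts by group; filled points are arrays, the bar is the mean with its SD, and the open point is Tg + Veh replicate 4, which is in no mean. The dashed line in the Ccl3 panel is the signal minimum of 6.76, which 1 Tg + Veh array passed, and Cxcl12 in Tg + Veh lay under all 3 Non + Veh arrays.

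The other CC chemokines were low. Ccl4, a close relative of Ccl3, had 4.38, 4.31 and 4.49 in Tg + Dox, against 4.78, 4.43 and 4.44 in Tg + Veh. It had 4.38 on both Non + Dox arrays, against 4.22, 4.38 and 4.30 in Non + Veh. Tg + Veh replicate 1 was the highest array for Ccl4 as it was for Ccl3, and the RefSeq spans of the 2 genes on chromosome 11 overlap; whether their probes do was not tested. Ccl2, the monocyte attractant that acts through Ccr2, spanned 4.92 to 5.13 in Tg + Dox, 5.01 to 5.14 in Tg + Veh, 4.98 to 5.01 in Non + Dox and 4.93 to 5.01 in Non + Veh. In the fit without a minimum, the Tg + Veh over Non + Veh difference was 0.25 for Ccl4 (interval 0.03 to 0.47, adjusted p = 0.451) and 0.11 for Ccl2 (interval -0.03 to 0.25, adjusted p = 0.661). The receptors Ccr1 and Ccr2 lay under the minimum on all 11 arrays.

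Cxcl12, the ligand of Cxcr4 that guides neural precursors and leukocytes, was the one member that lay lower in Tg + Veh with no overlap. Cluster TC0600001313.mm.1 (chr6:117168535-117181368) had 7.13, 7.42 and 7.46 in Tg + Dox, against 7.27, 7.08 and 6.95 in Tg + Veh. It had 7.19 and 7.44 in Non + Dox, against 7.51, 7.66 and 7.59 in Non + Veh. The 3 Non + Veh arrays were the highest of all 11, and the other groups overlapped one another. The difference was -0.48 in Tg + Veh over Non + Veh (SE 0.113, interval -0.74 to -0.23, adjusted p = 0.0744), and 0.24 in Tg + Dox over Tg + Veh (interval -0.01 to 0.50, adjusted p = 0.337). It was -0.27 in Non + Dox over Non + Veh (interval -0.55 to 0.02, adjusted p = 0.492) and 0.03 in Tg + Dox over Non + Dox (interval -0.26 to 0.31, adjusted p = 0.993). The difference between the feed effects of Tg and Non was 0.51 (interval 0.13 to 0.89, adjusted p = 0.522). Without Tg + Dox replicate 1 the Tg + Veh over Non + Veh difference was just inside the threshold, at an adjusted p of 0.04996 from limma.

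Endothelial and mural cells are a known source of Cxcl12. Of their 8 markers 7 were tested and 0 were called in any comparison. Over all 8 the median difference was -0.08 in Tg + Veh over Non + Veh and -0.27 in Non + Dox over Non + Veh, against medians of 0.0035 and 0.0041 over all 30184 genes. Their mean log2 signal ranged over 7.50 to 7.81 in Tg + Dox and 7.58 to 7.82 in Tg + Veh, and over 7.46 to 7.56 in Non + Dox and 7.71 to 7.87 in Non + Veh. In Non + Dox these markers and Cxcl12 both lay below Non + Veh, and their part in the Cxcl12 values was not tested. Cxcr4 lay under the minimum, with a difference of 0.57 in Tg + Veh over Non + Veh and -0.38 in Tg + Dox over Tg + Veh, and the scavenger receptor Ackr3 was not analysed here. The genes most like Cxcl12 over the 11 arrays were Tubg2 (r = 0.933), H2ax (0.930) and Fntb (0.917).

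Cxcl16, a membrane-bound chemokine that is cut free by Adam10 and binds Cxcr6, lay under the minimum throughout but separated the groups. It had 5.06, 4.78 and 5.18 in Tg + Dox, against 5.51, 5.22 and 5.39 in Tg + Veh. It had 5.08 and 5.02 in Non + Dox, against 4.93, 4.80 and 4.88 in Non + Veh. The Tg + Veh arrays were above every other array. In the fit without a minimum the difference was 0.51 in Tg + Veh over Non + Veh (SE 0.105, interval 0.27 to 0.75, adjusted p = 0.0974) and -0.37 in Tg + Dox over Tg + Veh (interval -0.61 to -0.13, adjusted p = 0.256).

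Cxcl10, the interferon-induced ligand of Cxcr3, and Tnf were flat and near the bottom of the scale. Cxcl10 had 3.73, 3.68 and 3.96 in Tg + Dox, 3.73, 3.73 and 3.74 in Tg + Veh, 3.62 and 3.73 in Non + Dox, and 3.73, 3.66 and 3.75 in Non + Veh. Tnf had 4.19, 4.19 and 4.34 in Tg + Dox, 4.26, 4.22 and 4.27 in Tg + Veh, 4.17 and 4.19 in Non + Dox, and 4.19, 4.22 and 4.17 in Non + Veh. The highest array of both was Tg + Dox replicate 3. Without a minimum, Tg + Veh over Non + Veh was 0.02 for Cxcl10 (interval -0.14 to 0.18) and 0.05 for Tnf (interval -0.05 to 0.16). No change was detectable at these signals.

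**Figure D2:**
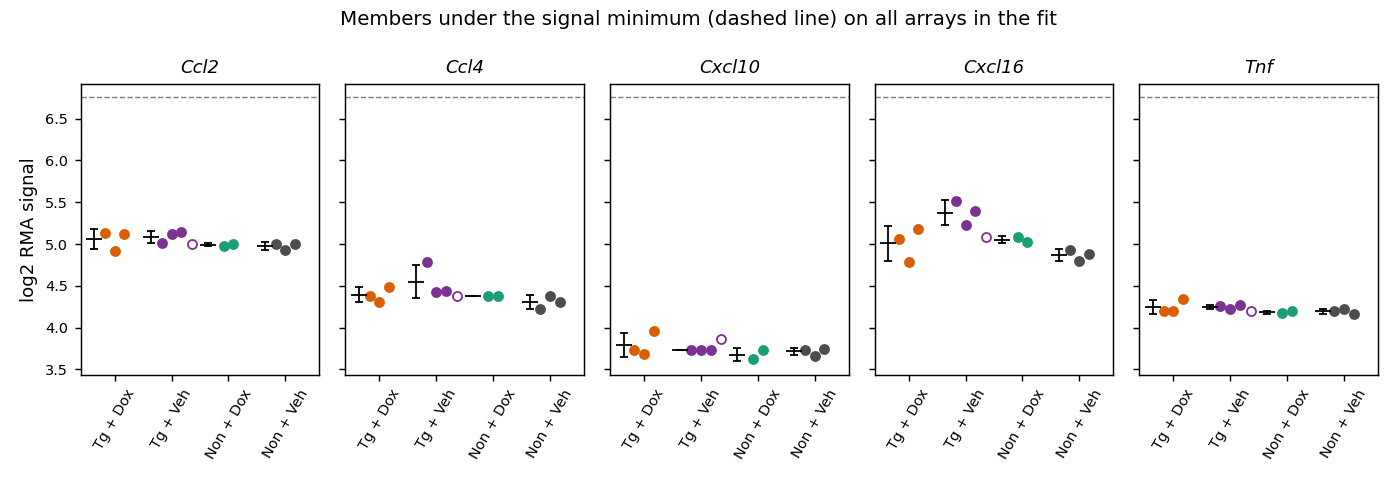
Log2 RMA signal of the 5 transcripts under the signal minimum, on 1 shared vertical axis, with points and bars as in the plot of tested transcripts and the dashed line at 6.76. No point reaches the line, and only Cxcl16 has all 3 Tg + Veh arrays above every other array.

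Cx3cl1 (fractalkine), the neuronal ligand of the microglial receptor Cx3cr1, was strongly expressed in every group. Cluster TC0800001119.mm.1 (chr8:94772180-94782427) had 11.05, 11.47 and 11.56 in Tg + Dox, against 11.33, 11.16 and 11.08 in Tg + Veh. It had 11.26 and 11.34 in Non + Dox, against 11.54, 11.65 and 11.16 in Non + Veh. All groups overlapped. The difference was -0.26 in Tg + Veh over Non + Veh (interval -0.62 to 0.09, adjusted p = 0.499) and 0.17 in Tg + Dox over Tg + Veh (interval -0.19 to 0.52, adjusted p = 0.633). Of 8 neuron markers, all tested, 0 were called, with a median of -0.16 in Tg + Veh over Non + Veh. The patterns closest to Cx3cl1 were those of St8sia5 (r = 0.969), a sialyltransferase, Pnkd (0.944) and Chrna4 (0.932), a nicotinic receptor subunit.

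Its receptor Cx3cr1, also a microglia marker, had 8.20, 8.11 and 8.47 in Tg + Dox, against 9.42, 8.63 and 8.81 in Tg + Veh. It had 7.87 and 8.10 in Non + Dox, against 7.84, 8.13 and 8.40 in Non + Veh. All Tg + Veh arrays were above all other arrays, and the difference of 0.83 in Tg + Veh over Non + Veh (SE 0.214) did not pass the test (adjusted p = 0.107). It was -0.69 in Tg + Dox over Tg + Veh, with an adjusted p of 0.174.

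Il18, which is released after inflammasome cleavage and drives interferon-gamma in T and NK cells, moved little. Cluster TC0900000599.mm.1 (chr9:50554700-50581841) had 7.26, 7.17 and 7.14 in Tg + Dox, against 7.17, 7.27 and 7.36 in Tg + Veh. It had 7.12 and 7.21 in Non + Dox, against 7.03, 7.06 and 7.05 in Non + Veh. The Non + Veh arrays were the lowest of the 11, and the other groups overlapped. The difference was 0.22 in Tg + Veh over Non + Veh (SE 0.0579, interval 0.09 to 0.35, adjusted p = 0.113), 0.12 in Non + Dox over Non + Veh (interval -0.03 to 0.26, adjusted p = 0.563) and -0.08 in Tg + Dox over Tg + Veh (interval -0.21 to 0.05, adjusted p = 0.533).

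Casp1, the caspase that cuts pro-Il18, was tested and differed by -0.02 in Tg + Veh over Non + Veh (adjusted p = 0.971). The inflammasome parts Nlrp3 and Pycard, the pore former Gsdmd, the decoy Il18bp and the receptor chains Il18r1 and Il18rap lay under the minimum. The genes with patterns most like Il18 were Gm6768 (r = 0.942), Traf6 (0.920), the ubiquitin ligase through which interleukin-1 family receptors signal, and Gm9115 (0.918).

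Il33, the nuclear alarmin of oligodendrocytes and astrocytes, was the one tested transcript of the 10 whose Tg + Dox and Tg + Veh arrays did not overlap. Cluster TC1900000448.mm.1 (chr19:29925113-29960718) had 8.80, 8.80 and 8.15 in Tg + Dox, against 9.19, 9.06 and 9.01 in Tg + Veh. It had 8.46 and 8.80 in Non + Dox, against 8.67, 8.69 and 8.83 in Non + Veh. The Tg + Veh arrays were the highest of all 11, and Tg + Dox replicate 3 was the lowest. The difference was 0.36 in Tg + Veh over Non + Veh (SE 0.169, interval -0.02 to 0.74, adjusted p = 0.392) and -0.50 in Tg + Dox over Tg + Veh (interval -0.89 to -0.12, adjusted p = 0.204).

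Here Tg + Dox replicate 3 went the other way from Ccl3, where it was the highest of its group. Without it, Il33 in Tg + Dox over Tg + Veh was -0.29. Of 7 tested oligodendrocyte markers, 3 were called higher in Tg + Veh over Non + Veh and 3 lower in Tg + Dox over Tg + Veh, and of 8 tested astrocyte markers 6 were called higher and 1 lower. Mog, a myelin glycoprotein, was at 0.59 (adjusted p = 0.0162) and -0.62 (adjusted p = 0.0312) in these comparisons. In Tg + Veh over Non + Veh limma also called Mag (adjusted p = 0.0144) and Cnp (adjusted p = 0.0332). Among the oligodendrocyte markers not called there were Olig1 (limma adjusted p = 0.978) and Mbp (adjusted p = 0.515). The mean signal of the 7 oligodendrocyte markers ranged over 10.00 to 10.15 in Tg + Dox, 10.43 to 10.54 in Tg + Veh, 9.92 to 10.04 in Non + Dox and 10.09 to 10.18 in Non + Veh, and their part in the Il33 values was not tested. Il1rap, the shared chain of the Il33 receptor, differed by 0.13 in Tg + Veh over Non + Veh (adjusted p = 0.496) and -0.22 in Tg + Dox over Tg + Veh, at an adjusted p of 0.196, and the specific chain Il1rl1 was not analysed here. Zcchc2 (r = 0.908), Ankle2 (0.891) and Mex3c (0.890) had the patterns most like Il33.

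**Figure D3:**
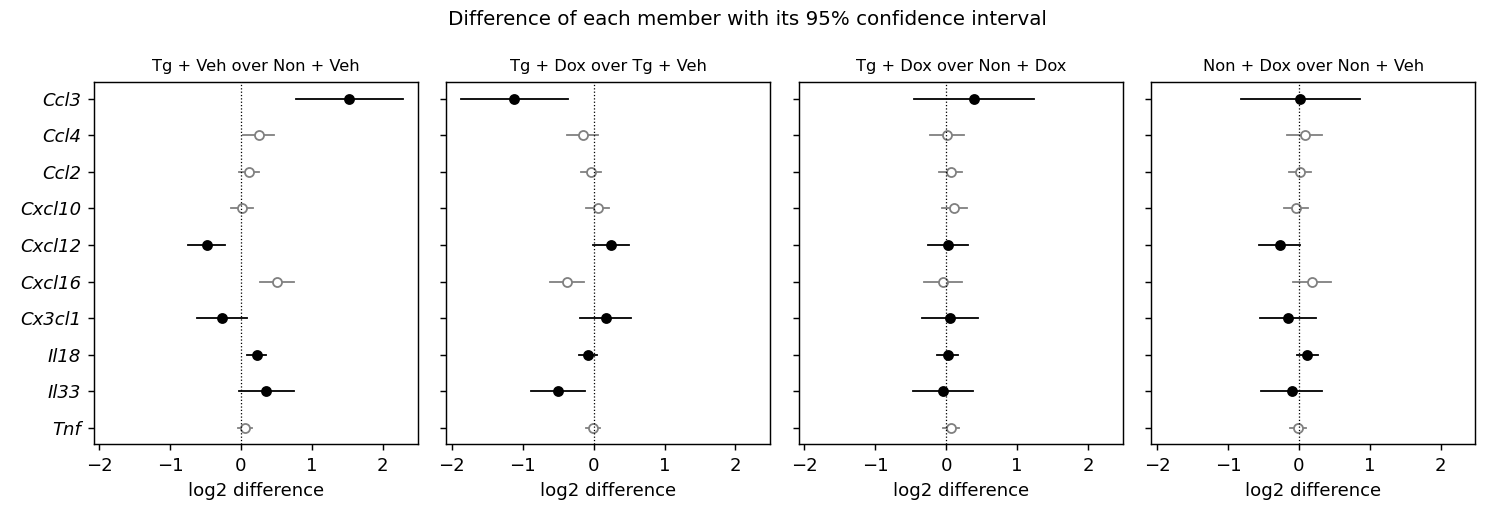
Log2 difference (horizontal axis) of each of the 10 transcripts in 4 comparisons, with its 95% interval from limma; filled points were tested, and open grey points lay under the signal minimum and come from the fit without it. Ccl3 lies farthest from 0 in the first and second panels, at 1.53 and -1.11, and no interval in the 2 right-hand panels leaves 0 out.

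Read as ranges, more of the 10 transcripts lay above than below Non + Veh in Tg + Veh, in part at signals under the minimum. In 6 of them (Ccl2, Ccl3, Ccl4, Cxcl16, Il18 and Il33) all Tg + Veh arrays lay above all Non + Veh arrays, and in 1 (Cxcl12) all lay below. Of all 30184 genes with 1 symbol, 8.22% did the first and 5.01% the second. For Ccl2 the gap was under 0.01, and Ccl3 and Ccl4 have overlapping RefSeq spans. Ccl2, Ccl4 and Cxcl16 lay under the signal minimum on every array in the fit, and Ccl3 passed it on 1 array only. In Tg + Dox over Tg + Veh, 2 of the 10 (Cxcl16 and Il33) lay lower without overlap, against 7.37% of all genes. In Tg + Dox over Non + Dox, 0 of the 10 were separated in either direction, against 15.0% of genes. In Non + Dox over Non + Veh, 2 (Cxcl16 and Il18) lay above, against 12.1%, and 1 (Cxcl12) lay below, against 9.46%. The Non + Dox group holds only 2 arrays. These comparisons share control arrays, and the 10 genes were chosen with earlier results of these data known, so the counts are descriptions.

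Calls were few among other chemokines and cytokines, from lists chosen by name with earlier results of these data known. Of all 12566 genes tested, 2.00% were called in Tg + Veh over Non + Veh, and the list counts are descriptions. Of 24 other chemokines 6 were tested and 1 was called higher in Tg + Veh over Non + Veh. Over all 24, 12 differences were above 0 and 12 below, with a median of 0.0006 against 0.0035 over all 30184 genes. Of 22 other cytokines 2 were tested and 1 was called higher. The called chemokine was Ccl6, a CC chemokine of rodent macrophages, and the called cytokine was Csf1, the growth factor that sustains microglia through Csf1r. Between Tg + Dox and Tg + Veh 0 of either list were called. Classical inflammatory cytokines, among them Il1a, Il1b, Il6, Il10 and Il12b, lay under the minimum on all 11 arrays.

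Ccl6 had 6.10, 5.70 and 6.76 in Tg + Dox, against 7.19, 6.85 and 6.85 in Tg + Veh. It had 5.75 and 5.88 in Non + Dox, against 5.66, 5.82 and 5.94 in Non + Veh. Tg + Dox replicate 3 was again nearest to the Tg + Veh range. Ccl6 rose by 1.16 in Tg + Veh over Non + Veh (SE 0.229, adjusted p = 0.0385). It passed the signal minimum on the 3 Tg + Veh arrays only, so the filter let it in through the group where it is high, and without a minimum the call was lost (adjusted p = 0.0822). It kept this call without Tg + Dox replicate 2 or 3, and lost it without any other single array, at an adjusted p of 0.0639 to 0.156. Ccl9, a related chemokine, was at 0.78 (adjusted p = 0.0516), and Cxcl14, a chemokine of skin and brain, at 0.49 (adjusted p = 0.0570).

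Csf1 had 6.87, 6.89 and 6.97 in Tg + Dox, against 7.42, 7.26 and 7.01 in Tg + Veh. It had 6.70 and 6.69 in Non + Dox, against 6.87, 6.67 and 6.56 in Non + Veh. The Tg arrays on either feed were all above the Non arrays, by under 0.01 at the closest, and Tg + Dox lay below Tg + Veh. Csf1 rose by 0.53 in Tg + Veh over Non + Veh (SE 0.106, adjusted p = 0.0406). Only without Tg + Veh replicate 3 did it keep the call, and without any other single array its adjusted p was 0.0572 to 0.1499. It was also lost without a minimum (adjusted p = 0.0822). Il34, the other ligand of Csf1r, was at -0.01 (adjusted p = 0.966).

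Among 8 genes that process or neutralise these ligands, 3 were tested and 1 was called. Adam17, the protease that sheds Tnf and Cx3cl1 from the cell surface, had 7.84, 7.78 and 7.93 in Tg + Dox, against 8.07, 8.03 and 8.08 in Tg + Veh. It had 7.73 and 7.70 in Non + Dox, against 7.73, 7.70 and 7.77 in Non + Veh. The Tg + Veh arrays were above all others, and every Tg + Dox array was above every Non array. Adam17 rose by 0.33 in Tg + Veh over Non + Veh (SE 0.0465, adjusted p = 0.0113), and was at -0.21 in Tg + Dox over Tg + Veh, with an adjusted p of 0.0820. The call was lost without Non + Veh replicate 1 (adjusted p = 0.0538) or replicate 2 (adjusted p = 0.0586), and with all 12 arrays (adjusted p = 0.147). Adam10, which sheds Cxcl16 and Cx3cl1, was at 0.23 (adjusted p = 0.126).

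Pathways upstream of induction were not called. Of 16 genes of the NF-kB and TNF pathway 14 had a row, 5 were tested and 0 were called in any comparison; Nfkbia, the inhibitor that NF-kB itself induces, was at 0.30 in Tg + Veh over Non + Veh (adjusted p = 0.142) and Rela at 0.09 (adjusted p = 0.830). Of 9 genes of the interferon-gamma axis 8 had a row, 4 were tested and 0 were called; the receptor chain Ifngr1 was at 0.33 (adjusted p = 0.0535). Ifng, Cxcl9 and Cxcl11 lay under the minimum on all 11 arrays, as did Cxcl10. Of 14 ligand receptors 11 had a row, 2 were tested (Cx3cr1 and Il1rap) and 0 were called.

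**Figure D4:**
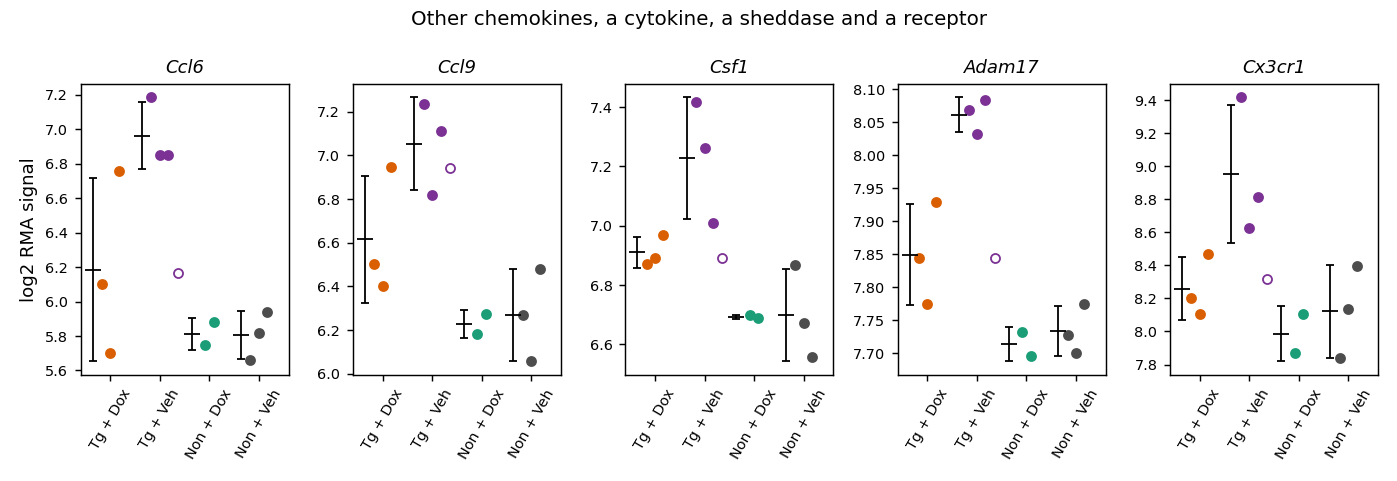
Log2 RMA signal (vertical axis, its own scale in each panel) of Ccl6, Ccl9, Csf1, Adam17 and Cx3cr1 by group, with points and bars as in the plot of tested transcripts. In each of Ccl6, Csf1, Adam17 and Cx3cr1 all 3 Tg + Veh arrays lie above every other filled point.

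**Figure D5:**
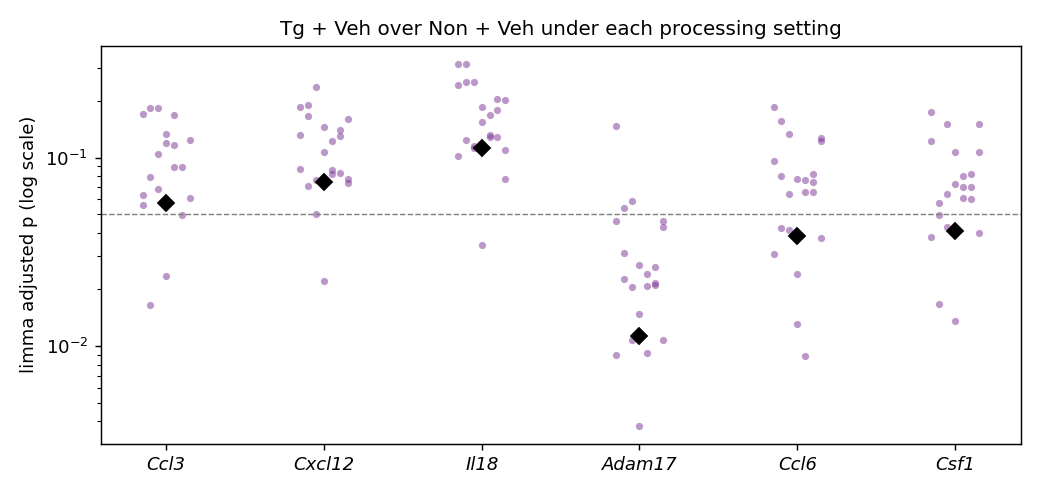
Adjusted p from limma (vertical log axis) in Tg + Veh over Non + Veh for 3 of the 10 transcripts and 3 related genes; the diamond is the reported value, each dot is 1 alternative setting, and the dashed line is 0.05. Ccl3 is at 0.0572 and spans 0.0165 to 0.184 over its alternatives, and Adam17 at 0.0113 spans 0.0038 to 0.147.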

How the data were processed

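Cortex RNA of 12 samples was hybridised to Clariom D arrays. The authors computed signals with the Robust Multi-Array Algorithm and deposited them on the log2 scale, annotated to gene symbols; a version is not given in the sources used here. Read depth does not apply to arrays, and their number limits the precision. Columns were mapped by title, with 0 left unmapped. From there, rows with 1 symbol were kept, the highest-mean row per symbol was used, and genes with a log2 signal above 6.76 on at least 1 of 11 arrays (12566) were tested with limma 3.58.1 in R 4.3.3, in 1 fit to 4 group means with 7 residual degrees of freedom. Array Tg + Veh replicate 4 was left out, as in the methods. The text names all 10 members, receptors of tested members, and the 3 tested genes most correlated with each tested member. It also names called genes of the lists of chemokines, cytokines, receptors, processing genes and pathways (at most 4 by adjusted p). Called cell type markers are counted by list and not all are named. Other named list genes were chosen after their values were seen. Members and lists were chosen with earlier results of these data known. The fit was tested on simulated data. Alternatives covered each array left out, filters, scaling, variance models, sex and a replicate block. Genes with no single-symbol row were not analysed here. RefSeq promoters came from GRCm38.p6.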

Additional observations from a re-analysis of the deposited data

Results flagged for a closer look

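Among the 4 Tg + Veh arrays, with replicate 4 counted, a pair of transcripts had 1 array far from the rest by Dixon's criterion. Chance meets it in about 1 in 20 groups of normally spread values. Ccl4 was at 4.78 on replicate 1, against 4.38 to 4.44 on the other 3, and Cxcl10 at 3.87 on replicate 4, against 3.73 to 3.74. Both transcripts lay under the signal minimum and had identical values on several arrays, so that rate need not hold for them.

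The feed difference of Cxcl16 ran in opposite directions in Tg and in Non without overlap of arrays: all Tg + Dox arrays lay below all Tg + Veh arrays, and both Non + Dox arrays lay above all Non + Veh arrays. The difference of the feed differences was -0.55 (SE 0.158). Cxcl16 was not tested in the reported fit, and in the limma fit without a minimum the adjusted p was 0.685.

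Tg + Veh replicate 4, which is in no comparison, had 4 transcripts above the highest Non + Veh array. Ccl3 was at 5.88 against a highest Non + Veh value of 5.18, Cxcl10 at 3.87 against 3.75, Cxcl16 at 5.08 against 4.93 and Il18 at 7.07 against 7.06. On the same array Cxcl12, at 6.78 against a lowest Non + Veh value of 7.51, and Cx3cl1, at 11.13 against 11.16, lay below. The share of all genes outside the Non + Veh range on this array is not given here, so the count is a description.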

How the results depend on the processing

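Of the 10 transcripts, 0 were called in each comparison as reported, and the count changed only in the comparisons with Tg + Veh. In Tg + Veh over Non + Veh it was 1 with arrays centred on their median (Ccl3, adjusted p = 0.0496), 3 with array weights (Ccl3, Cxcl12 and Il18), and 0 to 1 with 1 array left out. In Tg + Dox over Tg + Veh it was 0 to 1 with 1 array left out. A replicate block gave 0 in all 5 comparisons. With group means removed, same-numbered arrays of different groups correlated at -0.304 to 0.407, with 4 of 15 pairs over 0.1. Different-numbered arrays correlated at -0.403 to 0.356, with 10 of 30 over 0.1. The ranges overlap, and with 2 or 3 arrays a group they cannot settle whether the numbers pair samples. Some small uncalled differences changed sign. In Tg + Dox over Non + Dox, Il33 (-0.04 as reported) was 0.0425 with a sex term, 0.0246 with the replicate block and 0.13 without Non + Veh 3 and Non + Dox 2 (a setting chosen after seeing the data). In Non + Dox over Non + Veh, Ccl3 (0.02) was -0.0333 with a sex term and -0.12 without those 2 arrays. With 1 array left out, Tg + Dox over Non + Dox spanned -0.10 to 0.15 for Cxcl12, -0.0448 to 0.21 for Cx3cl1, -0.0252 to 0.0728 for Il18 and -0.22 to 0.17 for Il33, and Non + Dox over Non + Veh spanned -0.13 to 0.17 for Ccl3 and -0.27 to 0.0734 for Il33. The cause was not tested. Over all genes, 251 calls in Tg + Veh over Non + Veh became 1 with all 12 arrays, 122 with the replicate block, 148 without a minimum and 513 with array weights, and 87 in Tg + Dox over Tg + Veh became 0, 11, 8 and 123. Each transcript had 1 row, so a second row could not be tried. Ccl3 is in no fit without Tg + Veh replicate 1, nor with the minimum required on every array of a group. Limits: 2 or 3 arrays a group, no female Non + Dox array, and 5 transcripts too dim to test.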

Other observations

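Several transcripts had exactly the same deposited log2 value on more than 1 array. Cxcl10 had 1 value on 5 of the 11 arrays, Ccl4 and Tnf had 1 value on 4 arrays each, and Il33 and Ccl2 on 3. Over all 30184 genes, 65.1% had at least 2 identical values and 33.3% at least 4, and among the 12566 tested genes 60.6% and 29.1% did. Ccl3, Cxcl12, Cxcl16, Cx3cl1 and Il18 had none. Where values repeat within a group, its SD is small or 0, as for Ccl4 in Non + Dox, and it enters the shared spread of the fit.

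Choroid plexus markers varied more between arrays than the 10 transcripts did. The mean log2 signal of 6 of them ranged over 5.88 to 6.69 in Tg + Dox and 6.38 to 8.73 in Tg + Veh, and over 6.26 to 8.20 in Non + Dox and 6.42 to 7.97 in Non + Veh. Over all 6 the median difference in Tg + Dox over Tg + Veh was -1.37, and of the 4 tested 0 were called by limma in any comparison.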
